A study of Rattus norvegicus with 15 samples.

Results

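The nuclear-encoded subunits of oxidative phosphorylation were followed in synovial tissue, the lining of the joint, of rats with adjuvant-induced arthritis. A row of the count table was taken as a member when its mean count over the 15 libraries was at least 10 and its symbol was Cyc1, Sdha, Sdhb, Sdhc or Sdhd or began with Nduf (Ndufaf left out), Uqcr, Cox4, Cox5, Cox6, Cox7, Cox8 or Atp5, leaving out symbols that end in -ps or contain a dot. This gave 90 members of 23342 rows: 42 of complex I, 4 of complex II, 9 of complex III, 17 of complex IV and 18 of complex V. No measured difference between groups entered the rule. A few members have symbols built on that of another (Ndufs6 and Ndufs6l1, Ndufa10 and Ndufa10l1, Ndufb11 and Ndufb11b, Cox7a2l and Cox7a2l2). How alike their sequences are was not examined, and their counts are uncertain if reads fit both rows. The members with the lowest mean counts just inside it were Cox7a1 (36.5), Ndufb11b (43.1), Ndufs6 (59.7) and Cox6b2 (60.9), and the 3 symbols outside it, Cox7b2, Cox8c and Ndufb4l1, had means of 0.0667 to 0.133.

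RNA was sequenced from 3 groups of wild-type rats, 5 libraries each. Ab rats had the arthritis, set off by complete Freund's adjuvant in the skin of the tail, and received an anti-cANGPTL4 antibody into the peritoneum on repeated days of each week. AIA rats had the arthritis alone, and CON rats were left untreated. The labels name no isotype antibody or vehicle for AIA, no strain, sex or age and no batch, and the title of Ab replicate 21_8 carries 2 numbers, so that its being 1 rat is an assumption. The lubricin gene Prg4, a product of synovial lining fibroblasts, stood at 3362 to 5462 CPM (counts scaled to the library size) in Ab, 2714 to 5691 CPM in AIA and 5602 to 11205 CPM in CON, and the fat cell gene Adipoq at 2671 to 3916 CPM in Ab, 1090 to 3383 CPM in AIA and 1852 to 3017 CPM in CON. Nothing in the labels says whether the 5 libraries of a group came from separate experiments, so p-values measure the spread between these libraries. Total counts were 31172215 to 34084345 per library.

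Oxidative phosphorylation is the work of 5 protein complexes in the inner mitochondrial membrane. Complexes I, III and IV pass electrons from NADH to oxygen and pump protons, complex II feeds in electrons from succinate, and complex V, the ATP synthase, lets the protons back to make ATP. A few core subunits of complexes I, III, IV and V are encoded by the mitochondrial genome and all others, including the whole of complex II, by nuclear genes, whose promoters are known as targets of the activators NRF1, GABPA (an ETS factor, also called NRF2) and YY1. Several complex IV subunits come as pairs, one made in most tissues and one mainly in heart and skeletal muscle.

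Promoters are shown as background on these genes, and a link between their motifs and the levels in the libraries was not tested. RefSeq promoters of the rat assembly GRCr8, from 250 bases before to 50 after the first listed start of a gene, were found by symbol for 78 of the 90 members. The NRF1 motif (GCGCA, any base, then GCGC) was present on either strand in 15 of the 78 (19.2%), against 4.71% of 27457 promoters of all genes and 8.83% of the 12386 promoters of genes that passed the count filter. The ETS motif CCGGAAG was present in 21 (26.9%), against 9.22% of all and 15.7% of those that passed. The YY1 motif AAGATGGC was present in 16 (20.5%), against 3.44% and 5%. The ETS and YY1 motifs can overlap by the letters AAG, and a match is a description of these letters and not a bound site. By complex, the NRF1 motif was in 7 of 37 promoters of complex I, 1 of 4 of complex II, 1 of 6 of complex III, 0 of 14 of complex IV and 6 of 17 of complex V. From each complex, 80 bases around the match nearest to the start are given for the member of highest level with such a match upstream of its start, 5′ to 3′ on the strand of the gene. Capitals mark the NRF1 motif, and in Cox8a, since no complex IV promoter held it, the ETS motif (read on the opposite strand as CTTCCGG). The stretches are, in GRCr8, chr9:1637488-1637567 (+) for Ndufa11, chr1:30764472-30764551 (+) for Sdha, chr8:118468124-118468203 (+) for Uqcrc1, chr1:213833624-213833703 (-) for Cox8a and chr7:135678230-135678309 (-) for Atp5mc2.
Ndufa11: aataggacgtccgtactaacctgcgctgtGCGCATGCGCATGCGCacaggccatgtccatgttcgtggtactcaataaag
Sdha: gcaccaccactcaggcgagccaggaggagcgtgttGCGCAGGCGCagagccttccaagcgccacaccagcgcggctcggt
Uqcrc1: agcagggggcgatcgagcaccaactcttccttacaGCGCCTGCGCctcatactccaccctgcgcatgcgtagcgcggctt
Cox8a: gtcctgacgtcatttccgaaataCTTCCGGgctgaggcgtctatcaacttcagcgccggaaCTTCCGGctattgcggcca
Atp5mc2: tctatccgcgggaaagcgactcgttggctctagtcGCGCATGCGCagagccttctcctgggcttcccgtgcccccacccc
The Ndufa11 stretch holds 2 NRF1 matches that overlap, the Cox8a stretch holds 2 separate ETS matches, and the other 3 stretches hold 1 NRF1 match each, that of Uqcrc1 read on the opposite strand.

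Members differed widely in level. Per length, in the authors' FPKM (counts scaled to gene length and library total) averaged over the 15 libraries, Cox4i1, a regulatory subunit of complex IV, was the highest at 663 FPKM, and Atp5f1b, the catalytic beta subunit of the ATP synthase, was second at 629.5 FPKM. They were followed by the complex IV subunits Cox6a1 (325 FPKM) and Cox8a (323 FPKM) and by Atp5f1e, a small subunit of the catalytic part (311 FPKM). Complex III was led by Uqcrh (185 FPKM), the hinge protein, and Uqcr11 (123 FPKM), complex I by Ndufa13 (169 FPKM) and Ndufb8 (162 FPKM), both accessory subunits, and complex II by Sdhc, which anchors it in the membrane (107 FPKM), and Sdha, its flavoprotein (103 FPKM). At the low end stood Cox7a1 (0.497 FPKM) and Ndufb11b (1.01 FPKM). Together the members took 0.854% to 1.15% of all counts in the Ab libraries, 0.705% to 0.987% in AIA and 0.805% to 0.923% in CON. Of the 90, 88 passed the filter on low counts, and Cox6a2 and Cox8b did not.

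No member was called higher or lower in any of the 3 comparisons by edgeR's quasi-likelihood test at an adjusted p under 0.05. In Ab against AIA 0 of 88 tested members were called, where 5.83% of all tested genes were (1.83% higher and 3.99% lower). The same count of 0 stood beside 8.05% in Ab against CON (3.38% higher and 4.66% lower) and 8.54% in AIA against CON (5.09% higher and 3.45% lower). In both comparisons of Ab, most members lay above 0. In Ab against AIA 80 of the 88 log2 fold changes were above 0, where 50% of all tested genes were, with a median of 0.23 (1.17-fold) against a median of -2.97e-05 over all tested genes. In Ab against CON 83 of 88 were above 0 (50.5% of all tested genes), with a median of 0.18 (1.13-fold). In AIA against CON 30 of 88 were above 0 (49.3% of all tested genes), with a median of -0.05 (0.969-fold). The comparisons share libraries in pairs, so their signs are not independent of each other. Many members also had their highest or lowest value in the same library, so signs within a comparison are not independent draws either.

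At an unadjusted p under 0.05 the members numbered 34 higher and 0 lower in Ab against AIA, where 23.4% of all tested genes passed, 10.2% higher and 13.2% lower. They numbered 17 higher and 0 lower in Ab against CON, where 23.7% of tested genes passed, 11.2% higher and 12.4% lower. In AIA against CON 0 were higher and 3 lower, where 21.1% of tested genes passed, 11.5% higher and 9.65% lower. These counts depended on single libraries. With 1 left out, the count in either direction in Ab against AIA was 13, 19 and 16 without Ab replicates 10, 12 and 21_8, 16 and 19 without AIA replicates 18 and 19, 51 without Ab replicate 3, 55 without AIA replicate 13 and 25 to 35 otherwise. In Ab against CON it was 43, 3, 8 and 9 without Ab replicates 3, 10, 12 and 21_8, 8 and 7 without CON replicates 7 and 17 and 12 to 22 otherwise, and in AIA against CON it was 0 to 5. Calls over all tested genes moved as well. At an adjusted p under 0.05 in Ab against AIA they were 5.83% with all libraries and 1.15% without Ab replicate 10. They were 1.38% and 11.8% without AIA replicates 18 and 13, and 4.84% without Ab replicate 3. Shares of all tested genes at the unadjusted threshold in these fits are not given here. DESeq2 called 4 of 88 members higher in Ab against AIA (Atp5f1b, Ndufs4, Sdhb and Sdha). Of all genes with an adjusted p it called 11.7% there, 4.13% higher. It called 3 members higher in Ab against CON, among them Atp5f1b and Cox5a, where it called 12.7% of these genes, 5.71% higher. In AIA against CON it called 0 members, beside 11.8% of these genes, 7.15% higher. The standard error of a member's log2 fold change was 0.09 to 0.28 with a median of 0.12 in Ab against AIA. In no member did the Ab and AIA libraries, or the AIA and CON libraries, fall apart without overlap (3.81% and 6.42% of all tested genes did, 1.61% and 3.25% with values higher in the first-named group). Between Ab and CON 2 did, both higher in Ab and Atp5mc3 among them, where 9.54% of tested genes did, 4.26% higher and the rest lower.

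**Figure D1:**
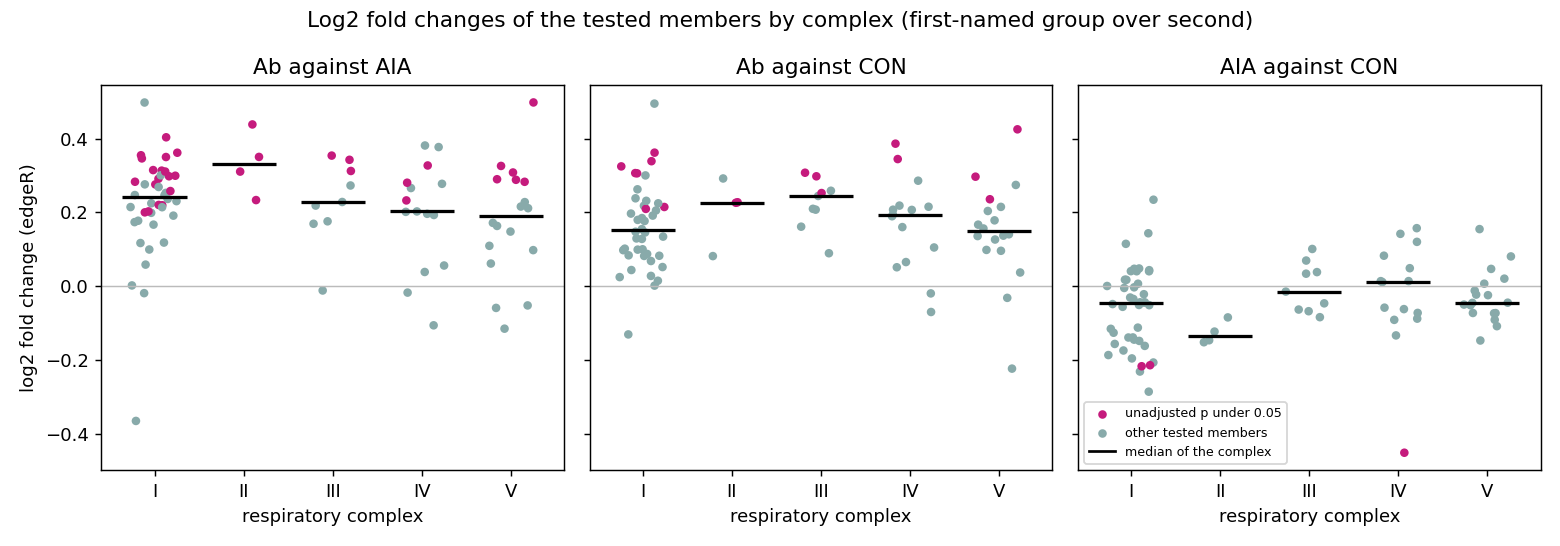
Each point is the edgeR log2 fold change (y axis) of 1 tested member, grouped by respiratory complex (x axis), for Ab against AIA, Ab against CON and AIA against CON; black lines are medians and pink points have an unadjusted p under 0.05. In Ab against AIA 80 of 88 points lie above 0, around a median of 0.23, and in AIA against CON the points lie around -0.05.

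The shift was carried by some rats of each group and not by all. Each library was given a score, its members' log2 CPM averaged and set against the CON average. It was -0.10, 0.04, 0.35, 0.22 and 0.32 in Ab replicates 3, 9, 10, 12 and 21_8. It was -0.10, 0.16, -0.26, -0.08 and 0.04 in AIA replicates 5, 13, 18, 19 and 23. It was 0.05, -0.06, 0.10, 0.11 and -0.20 in CON replicates 2, 7, 11, 14 and 17. Ab replicates 10, 12 and 21_8 were above every AIA and CON library, whereas Ab replicates 3 and 9 lay among them. AIA replicate 18 held the lowest value of 45 of the 88 members and CON replicate 17 that of 25. The highest value fell in Ab replicate 10 for 40 members and in Ab replicate 21_8 for 29.

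All 5 complexes followed the same libraries. The Ab scores ran from -0.13 to 0.34 for complex I, -0.09 to 0.39 for complex II, -0.09 to 0.42 for complex III, -0.02 to 0.34 for complex IV and -0.13 to 0.32 for complex V. The AIA scores ran from -0.29 to 0.15, -0.45 to 0.13, -0.21 to 0.21, -0.20 to 0.13 and -0.22 to 0.17 for the same complexes in that order. In CON the lowest score of a complex was -0.23 and the highest 0.15, and the 3 groups overlapped in every complex. Whether more mitochondria-rich cells or more RNA per cell lie behind a level cannot be told apart in bulk tissue.

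**Figure D2:**
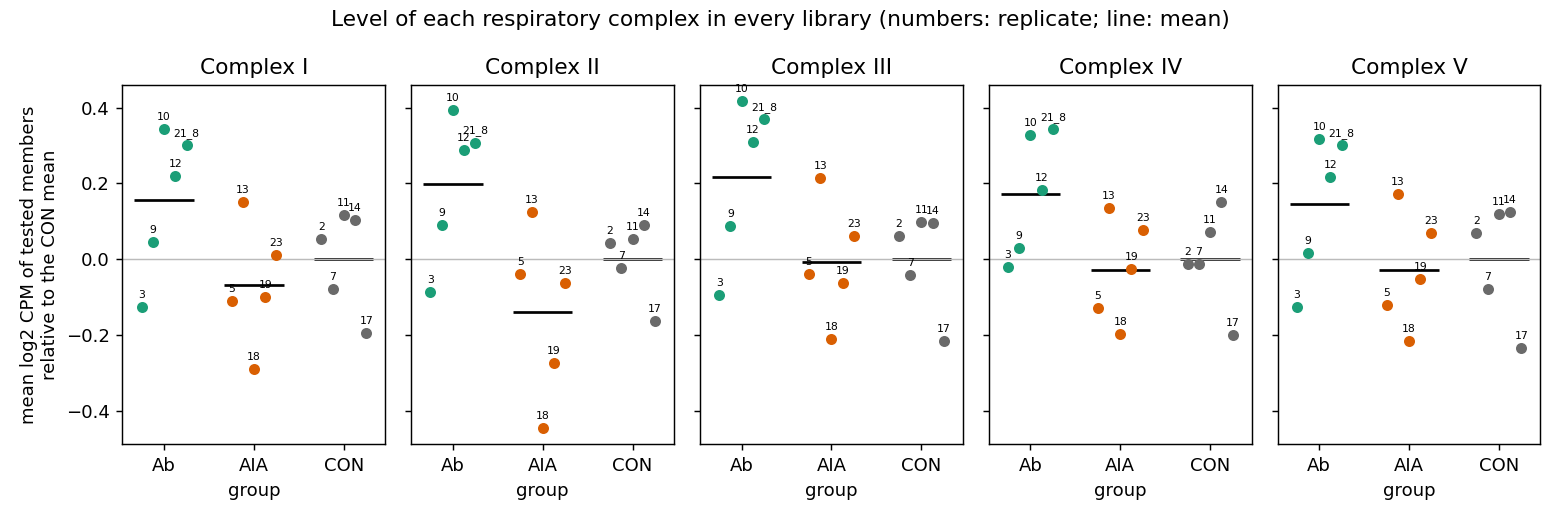
Points are libraries, numbered by replicate, and the y axis is the score of a complex, its members' log2 CPM averaged and set against the CON average; lines are group means. The groups overlap in all 5 complexes, with Ab replicates 10, 12 and 21_8 at the top of each and AIA replicate 18 or CON replicate 17 at the bottom.

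Complex I, the NADH dehydrogenase, had a median log2 fold change of 0.24 in Ab against AIA (40 of 42 above 0), 0.15 in Ab against CON (41 of 42) and -0.05 in AIA against CON (13 of 42). The 7 nuclear core subunits, which carry the flavin, the iron-sulfur clusters and the quinone site, were at 0.20 to 0.40 in Ab against AIA, and the 35 accessory subunits had a median of 0.23. Ndufs4, an accessory subunit whose loss causes mitochondrial disease, had the lowest p of all members in Ab against AIA. Ndufs4, Sdhb and Cox5a were chosen for description after their values were seen, as were the 4 complex III subunits named by role. Ndufs4 had 42.9, 47.7, 53.5, 57.0 and 51.3 CPM in Ab libraries, against 42.6, 44.6, 35.4, 39.7 and 42.8 CPM in AIA and 47.9, 44.0, 47.8, 53.0 and 45.7 CPM in CON. All but 1 Ab library were above every AIA library, and Ab and CON overlapped. The log2 fold change was 0.30 ± 0.09 (SE) in Ab against AIA (edgeR adjusted p = 0.0513) and -0.22 ± 0.09 in AIA against CON (edgeR adjusted p = 0.147).

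The 2 complex I members of highest level, both accessory, overlapped in all groups. Ndufb8, whose protein is often used as a marker of assembled complex I, had 93.4, 106, 135, 127 and 139 CPM in Ab against 92.0, 118, 76.8, 97.6 and 98.0 CPM in AIA (0.31 ± 0.13, edgeR adjusted p = 0.156). Ndufa13, also known as GRIM-19, averaged 85.5 ± 15.7 CPM in Ab, 73.1 ± 11 CPM in AIA and 81.5 ± 12.9 CPM in CON (SD, n = 5 each).

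Ndufa4l2, a paralogue of Ndufa4 known as a hypoxia-induced gene, lay on the other side. It had 11.3, 12.1, 11.8, 10.3 and 11.4 CPM in Ab, 9.88, 9.16, 20.8, 14.5 and 19 CPM in AIA and 10.8, 12.4, 10.3, 12.6 and 16.1 CPM in CON. AIA replicates 18, 19 and 23 were above all Ab libraries, and AIA replicates 5 and 13 below them. The log2 fold change of -0.37 ± 0.20 in Ab against AIA was the lowest of all members and was not called (edgeR adjusted p = 0.294). As a share of the FPKM of both paralogues, Ndufa4l2 made up 4.65% to 6.92% in Ab, 4.37% to 14.2% in AIA and 5.73% to 12% in CON. Ndufa4 itself, whose protein is found with complex IV, was at 0.25 ± 0.14 in Ab against AIA (edgeR adjusted p = 0.311). Both paralogues were counted in complex I here by their symbols alone.

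Complex II, succinate dehydrogenase, is the complex with no mitochondrially encoded subunit and the one that also works in the citric acid cycle. Its 4 members were at 0.23 to 0.44 in Ab against AIA, 0.08 to 0.29 in Ab against CON and -0.15 to -0.08 in AIA against CON. All 4 had an unadjusted p under 0.05 in Ab against AIA, where 10.2% of all tested genes did with higher values. Counts of members at this threshold depended on single libraries, as given above. Sdha had 236, 246, 336, 279.9 and 278 CPM in Ab, against 229, 273, 145, 173 and 195 CPM in AIA and 233, 231, 228, 237 and 194 CPM in CON. AIA replicates 18 and 19 were the lowest of all, AIA replicate 13 lay within the Ab range, and the lowest Ab library was below the highest CON library. Its log2 fold change was 0.44 ± 0.15 in Ab against AIA (edgeR adjusted p = 0.0843). Sdhb, the iron-sulfur subunit, had 89.8, 102, 131, 119 and 117 CPM in Ab, against 87.9, 103, 73.5, 83.6 and 91.0 CPM in AIA and 96.2, 96.9, 99.3, 99.4 and 85.9 CPM in CON. Ab replicates 10, 12 and 21_8 were above all other libraries, and the difference to AIA was 0.35 ± 0.10 (edgeR adjusted p = 0.0579). Sdhc was at 0.31 ± 0.10 in Ab against AIA (edgeR adjusted p = 0.0871).

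Complex III, cytochrome c reductase, had a median of 0.23 in Ab against AIA (8 of 9 above 0) and -0.01 in AIA against CON. Its structural core proteins Uqcrc1 and Uqcrc2 were at 0.35 and 0.22 in Ab against AIA, and the electron carriers Cyc1 and Uqcrfs1 (the Rieske protein) at 0.31 and 0.23. Uqcr11 had 83.0, 112, 129, 130.1 and 135 CPM in Ab, against 84.0, 106, 84.4, 88.5 and 101 CPM in AIA (0.34 ± 0.12, edgeR adjusted p = 0.109). Of its 5 Ab libraries, replicate 3 was the lowest of the 10 and the other 4 were the highest. Uqcrh, at -0.01 ± 0.12 in Ab against AIA, showed no such split.

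Complex IV, cytochrome c oxidase, had a median of 0.20 in Ab against AIA (13 of 15 above 0), 0.19 in Ab against CON and 0.01 in AIA against CON. Cox4i1 had 442, 460.2, 663, 544 and 566 CPM in Ab, against 431, 621, 342, 412 and 417 CPM in AIA and 405, 375, 467, 460.4 and 338 CPM in CON. Only AIA replicate 13 among the AIA libraries reached the Ab range, and Ab against CON was 0.39 ± 0.16 (edgeR adjusted p = 0.142). Cox5a, a nuclear subunit of the same enzyme, was at 0.34 ± 0.12 in Ab against CON (edgeR adjusted p = 0.0827, DESeq2 adjusted p = 0.0473). Cox6a1 and Cox8a, the forms made in most tissues, were at 0.28 ± 0.12 and 0.33 ± 0.14 in Ab against AIA. Cox7a2l, which joins complexes III and IV into supercomplexes, was at -0.02 ± 0.11 in the same comparison. Cox6b1 and Cox7a2, also general forms, were at 0.23 ± 0.11 and 0.28 ± 0.14 there, and Cox6b2, the testis form, at -0.11 ± 0.28. Cox4i2, the form of subunit 4 known from lung and oxygen-sensing cells, had 4.34 to 7.93 CPM in Ab, 5.19 to 7.51 CPM in AIA and 5.68 to 8.52 CPM in CON, with log2 fold changes of -0.06 to 0.04.

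The muscle forms of complex IV set 2 libraries apart. Cox6a2, the heart and skeletal muscle form of subunit 6a, had 3, 1, 1, 0 and 2 counts in the Ab libraries and 1, 0, 1, 1543 and 2 counts in AIA replicates 5, 13, 18, 19 and 23. In CON replicates 2, 7, 11, 14 and 17 it had 1403, 3, 2, 0 and 1 counts. Cox8b had 0, 2, 2, 3 and 1 counts in Ab, 5, 0, 5, 434 and 3 counts in AIA and 538, 3, 4, 10 and 1 counts in CON. Thus AIA replicate 19 and CON replicate 2 held nearly all reads of both genes, and neither passed the filter on low counts. In these 2 libraries Cox6a2 made up 25.7% and 23.2% of the FPKM of the Cox6a pair, and Cox8b 16.1% and 15.2% of the Cox8 pair, while in all other libraries neither share was above 0.294%. The skeletal muscle marker list (20 of 21 in the table, 16 tested) summed to 37.0 to 52.1 CPM in Ab, 36.6 to 19989 CPM in AIA and 43.6 to 10235 CPM in CON, the highest of each again AIA replicate 19 and CON replicate 2. Acta1, the skeletal muscle actin, reached 3530 CPM in AIA replicate 19 and 1706 CPM in CON replicate 2, whereas Myh7, the slow fibre myosin, was at 0 in both; Myh7 was picked after its value was seen. The part of muscle transcripts in values of other members was not tested gene by gene. Cox7a1, the muscle form of subunit 7a, did not follow, with 33 counts in each of these 2 libraries and 23 to 61 in the others. Its gene length was 2262 bases, against 479 for Cox7a2, and which transcript its row counts is not known.

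**Figure D3:**
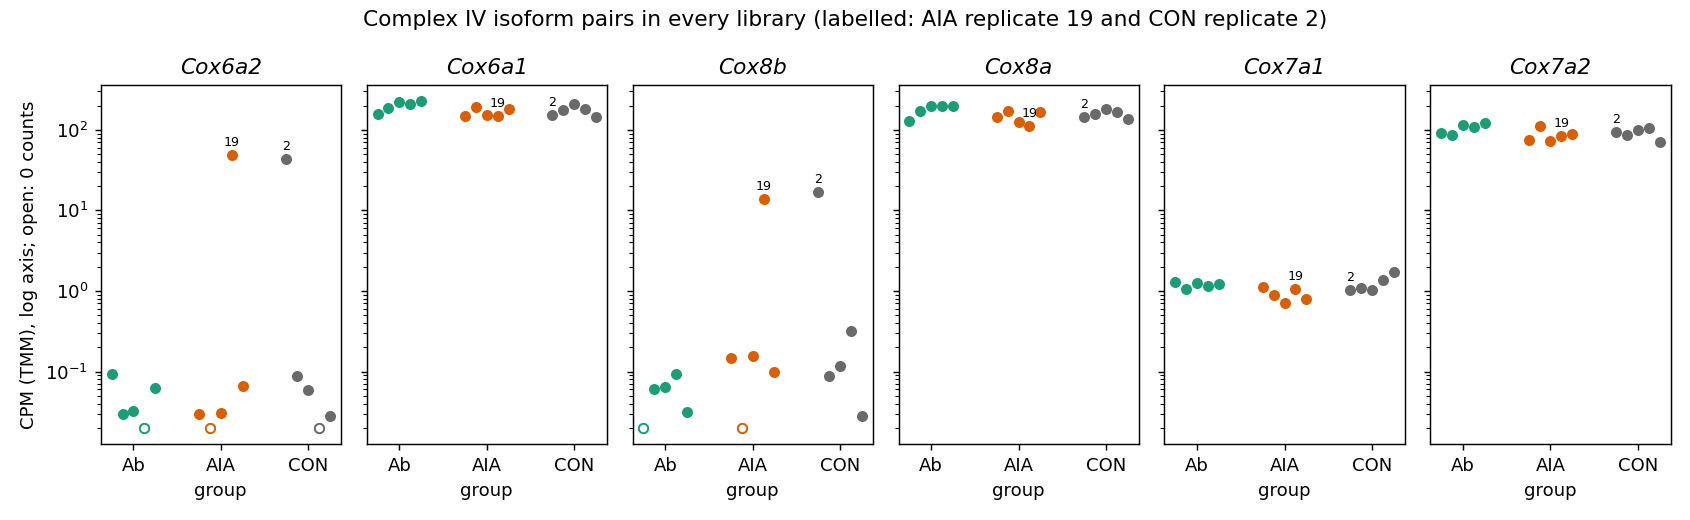
CPM (log axis) of 3 pairs of complex IV isoforms in every library, muscle form first; open circles, drawn at the bottom, are libraries with 0 counts. Cox6a2 and Cox8b stand high in AIA replicate 19 (49.0 and 13.8 CPM) and CON replicate 2 (43.6 and 16.7 CPM). Cox7a1 and the 3 general forms are not raised there, and Cox8a has its lowest value of all libraries in AIA replicate 19 (111 CPM).

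In both comparisons of Ab the members' medians were of similar size without these libraries. That in AIA against CON, which was -0.05 with all libraries, was smaller in size. Without AIA replicate 19 and CON replicate 2 the median log2 fold change of the 88 members was 0.22 in Ab against AIA (81 above 0), 0.18 in Ab against CON (82 above 0) and -0.02 in AIA against CON (37 above 0). In that fit edgeR called 0 members, where it called 1.36%, 4.69% and 3.55% of all tested genes in the same order, and 19, 12 and 1 members had an unadjusted p under 0.05. The share of all tested genes at the unadjusted threshold in that fit is not given here.

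Complex V, the ATP synthase, had a median of 0.19 in Ab against AIA (15 of 18 above 0), 0.15 in Ab against CON and -0.04 in AIA against CON. The 5 subunits of the catalytic F1 part had a median of 0.28 in Ab against AIA, the 4 of the peripheral stalk 0.19, the 5 small membrane subunits 0.17 and the 3 genes of the proton-carrying c ring 0.06. In Ab against CON the same medians were 0.16, 0.19, 0.13 and 0.10, and differences between parts were not tested. Atp5f1b had 1062, 1213, 1762, 1414 and 1338 CPM in Ab, against 1047, 1232, 732, 877 and 919 CPM in AIA and 1085, 980.4, 1016, 1083 and 890.3 CPM in CON. Its log2 fold change was 0.50 ± 0.15 in Ab against AIA (edgeR adjusted p = 0.058) and 0.43 ± 0.15 in Ab against CON (edgeR adjusted p = 0.0913, DESeq2 adjusted p = 0.0351). The value against AIA was the highest log2 fold change of the 88 tested members in that comparison, with Ndufb11b practically level (0.50 for both). In Ab against CON the highest was that of Ndufb11b (0.50), a member of low mean count (43.1).

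The 3 c ring genes encode the same mature protein with different import sequences. Atp5mc3 had 153, 152.2, 198, 189 and 197 CPM in Ab, 148, 195, 108, 126 and 151 CPM in AIA and 151, 147, 152.0, 151 and 124 CPM in CON. The lowest Ab library was above the highest CON library by a narrow margin, and the log2 fold change was 0.30 ± 0.14 (edgeR adjusted p = 0.197). Atp5mc2 had log2 fold changes of -0.06 in Ab against AIA and 0.10 in Ab against CON, and Atp5mc1 of 0.06 and 0.04. Atp5if1, the inhibitor that stops the enzyme from running backwards, was the member with the lowest log2 fold change in Ab against CON. It had 46.2, 49.4, 51.6, 58.7 and 57.9 CPM in Ab, 44.0, 61.8, 58.3, 55.1 and 66.5 CPM in AIA and 56.4, 51.2, 78.4, 67.7 and 54.2 CPM in CON. The groups overlapped, and the value was -0.22 ± 0.13 (edgeR adjusted p = 0.309).

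The calls in Ab against AIA changed with the libraries in the fit. With AIA replicate 13 left out, whose score was the highest of its group, 17 of 88 members were called higher (4.3% of all tested genes in that fit), 10 of them in complex I, 3 in complex II, 1 each in complexes III and IV and 2 in complex V. With Ab replicate 3 left out, whose score was the lowest of its group, 15 were called higher (2.16% of all tested genes), 8 in complex I, 2 in complex II, 2 in complex III and 3 in complex V. The lists shared 10 members, 58.8% of the first and 66.7% of the second, among them Ndufs4, Ndufs7, Ndufv1, Sdhb, Uqcrc1 and Atp5f1b. Both fits used mostly the same libraries and each left out one whose score ran against the difference, so this overlap is not separate evidence. With AIA replicate 5 left out 2 of 88 were called higher, Ndufs4 and Atp5f1b, where 4.66% of all tested genes were. With any 1 of the other 12 libraries left out 0 were called, where 0.296% to 1.68% of all tested genes were higher. In Ab against CON, 2 members were called higher without AIA replicate 13 (Cox5a among them, beside 4.17% of all tested genes) and 3 without Ab replicate 3 (Uqcr11, Ndufa10 and Atp5po, beside 3.15%). Members called lower numbered 0 in all these fits.

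**Figure D4:**
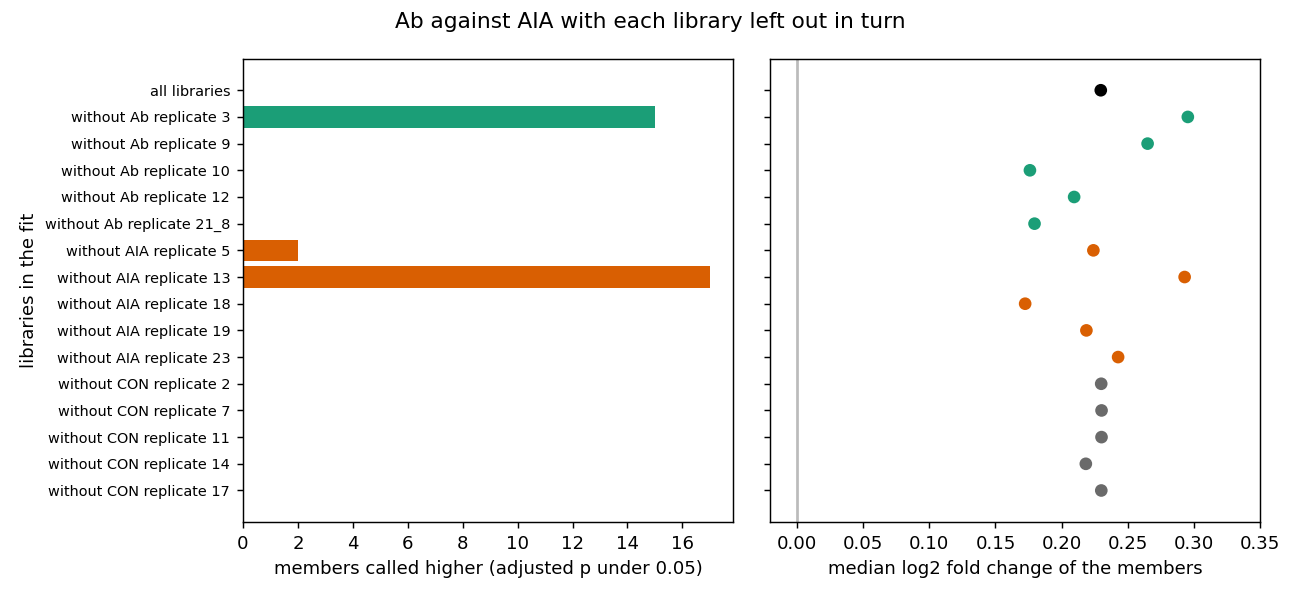
Ab against AIA refitted without each library in turn (rows, from all libraries at the top), with the number of members called higher on the left and the median log2 fold change of the members on the right; colours mark the group of the library left out. Calls appear without Ab replicate 3 (15), AIA replicate 13 (17) and AIA replicate 5 (2), while the median stays between 0.17 and 0.30.

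Other mitochondrial gene lists are given for comparison, and differences between lists were not tested. Of 17 tested genes of the citric acid cycle and pyruvate dehydrogenase 0 were called in any comparison, and their medians were 0.22 in Ab against AIA, 0.18 in Ab against CON and -0.03 in AIA against CON. In Ab against AIA 16 of the 17 were above 0. Cs, citrate synthase, was at 0.37 ± 0.13 in Ab against AIA (edgeR adjusted p = 0.0923). Of 49 tested assembly factors, which put the complexes together without staying in them, 0 were called, with medians of 0.11, 0.08 and -0.02 in the same order. The 2 of highest level on the log2 CPM scale were Coa5 (0.30 ± 0.11) and Sdhaf2, which adds the flavin to Sdha (0.52 ± 0.16, edgeR adjusted p = 0.0615), both in Ab against AIA. The 13 subunits encoded by the mitochondrial genome had medians of 0.07, 0.05 and -0.01 with 0 called, and COX1 and COX3 were at 0.05 ± 0.17 and 0.11 ± 0.17 in Ab against AIA. These 13 genes took 9.3% to 12% of all counts in Ab, 8.13% to 11.3% in AIA and 7.68% to 13.4% in CON. The library with the highest share, CON replicate 14, and that with the lowest, CON replicate 17, were of the same group.

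Among 18 tested electron carriers, carriers and porins of the inner and outer membrane, 2 were called higher in Ab against CON and 0 in the other comparisons. These were Coq5 (0.54 ± 0.15, edgeR adjusted p = 0.0408) and Coq8a (0.74 ± 0.21, edgeR adjusted p = 0.044), both of coenzyme Q synthesis. Each call was lost in 9 of 15 fits with 1 library left out, with edgeR adjusted p values up to 0.111 for Coq5 and 0.123 for Coq8a, and without the 2 muscle libraries these were 0.0781 and 0.0885. The 16 regulators of mitochondrial biogenesis had medians of 0.02 in Ab against AIA, -0.01 in Ab against CON and 0.01 in AIA against CON. Of these 16, 2 were called lower in AIA against CON, 1 lower in Ab against CON and 0 in Ab against AIA. Esrrg, a nuclear receptor that drives genes of oxidative metabolism, had 1.73, 4.14, 2.59, 4.00 and 2.28 CPM in Ab, 2.63, 0.865, 0.588, 1.08 and 1.02 CPM in AIA and 3.54, 3.24, 2.29, 3.72 and 4.86 CPM in CON. Of the AIA libraries only replicate 5 lay within the CON range. Its log2 fold change was -1.51 ± 0.36 in AIA against CON (edgeR adjusted p = 0.0181) and 1.25 ± 0.36 in Ab against AIA (edgeR adjusted p = 0.0547), the first called in all 15 fits with 1 library left out and at an adjusted p of 0.0803 without the 2 muscle libraries. Perm1, a regulator known from muscle, was lower in both Ab (-1.14 ± 0.32, edgeR adjusted p = 0.0388) and AIA (-1.11 ± 0.32, edgeR adjusted p = 0.0404) against CON. Those calls held in 9 and 7 of 15 fits, and without the 2 muscle libraries the adjusted p values were 0.0967 and 0.0894.

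**Figure D5:**
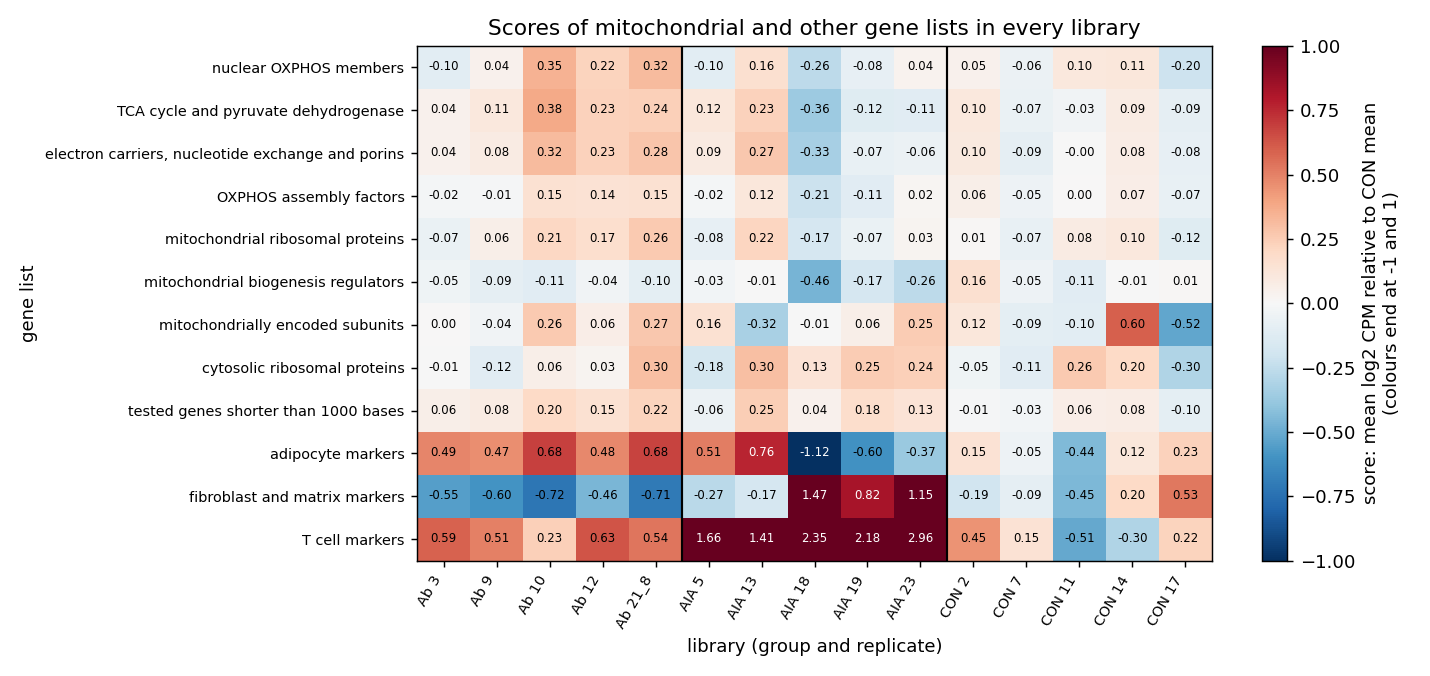
Rows are gene lists, columns are libraries by group, and each cell gives the mean log2 CPM of the tested genes of a list relative to the CON mean, with colours ending at -1 and 1. The scores of nuclear OXPHOS members (-0.26 in AIA replicate 18, 0.35 in Ab replicate 10) are shown with those of other lists; matrix scores are highest in AIA replicates 18, 19 and 23 (1.47, 0.82 and 1.15).

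Fat and matrix markers also differed between libraries. The adipocyte list (15 in the table, 14 tested) summed to 16532 to 21957 CPM in Ab, 6546 to 24705 CPM in AIA and 10315 to 14879 CPM in CON. Its score was 0.47 to 0.68 in Ab, 0.51 and 0.76 in AIA replicates 5 and 13, -1.12, -0.60 and -0.37 in AIA replicates 18, 19 and 23 and -0.44 to 0.23 in CON. Its order was in part that of the members. AIA replicate 13 had the highest and AIA replicate 18 the lowest AIA value of both scores. Ab replicates 10 and 21_8 were the highest of Ab in both. Other libraries did not match: Ab replicate 3 and AIA replicate 5 had adipocyte scores of 0.49 and 0.51 with member scores of -0.10. CON replicate 17 had the highest adipocyte score of CON (0.23) with the lowest member score (-0.20). Of the 14 tested markers 1 was called higher in Ab against AIA (Lep, leptin, 1.67 ± 0.37, edgeR adjusted p = 0.0219) and 0 in Ab against CON. All 14 were above 0 in both of these comparisons, with medians of 0.527 and 0.533. Leptin was called in 11 of 15 fits with 1 library left out and at an adjusted p of 0.0617 without the 2 muscle libraries. Ucp1, which defines brown fat, had no count in 14 of the 15 libraries. The fibroblast and matrix list summed to 19677 to 25538 CPM in Ab, 26132 to 65355 CPM in AIA and 34668 to 43840 CPM in CON, with 9 of 12 called lower in Ab against AIA. The 3 AIA libraries with the highest matrix scores (1.47, 0.82 and 1.15 in replicates 18, 19 and 23) had member scores of -0.26, -0.08 and 0.04. The T cell list summed to 8.8 to 14.3 CPM in Ab, 19.2 to 46.1 CPM in AIA and 5.11 to 9.1 CPM in CON. In Ab against AIA, edgeR called 7 of 8 tested T cell markers lower, 4 of 9 macrophage markers lower, 1 of 9 neutrophil markers lower and 5 of 13 cell cycle genes lower, and 0 of 11 erythroid, 0 of 12 endothelial and mural and 0 of 16 muscle markers. In Ab against CON it called 1 T cell, 7 neutrophil, 2 erythroid and 2 endothelial and mural markers higher and 4 macrophage and 4 matrix markers lower. In AIA against CON it called 8 T cell, 4 neutrophil, 1 macrophage, 4 matrix, 2 erythroid and 2 endothelial and mural markers and 9 cell cycle genes higher, and 1 macrophage, 1 matrix and 1 adipocyte marker lower. The part of these cell types in the members' values was not tested.

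Members are short, and 57 of the 90 have gene lengths under 1000 bases, so that other short genes were set beside them. The 1137 tested genes under 1000 bases had a median log2 fold change of 0.04 in Ab against AIA, 0.09 in Ab against CON and 0.05 in AIA against CON. The 91 tested cytosolic ribosomal protein genes, short and of high level, were at -0.08, 0.03 and 0.13, and the 74 mitochondrial ribosomal protein genes at 0.13, 0.12 and 0.0049. In Ab against AIA 10 of the 91 cytosolic and 69 of the 74 mitochondrial ones were above 0. Of these 74, 1 was called, higher in Ab against CON, Mrps6 (0.57), named after its value was seen.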

How the data were processed

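Rat synovial RNA was sequenced from 15 libraries in 3 groups of 5. The authors deposited raw read counts per gene symbol, and FPKM values, which per the file's values equal count per gene length and library total (within 0.1% for 100% of 291027 values). GRCm38 and mm10, which are builds of the mouse genome, stand in the submitters' processing notes. Aligner, counter, annotation and strand setting are, for these files, not given in sources used here. Groups come from the labels. The counts were fitted with edgeR 4.0.16 in R 4.3.3 (TMM, filterByExpr, quasi-likelihood F test, all 15 libraries in 1 fit), with Benjamini-Hochberg adjustment over 16046 genes and calls at an adjusted p under 0.05. CPM use TMM library sizes, and scores use log2 CPM with a prior count of 2. Alternatives were other normalizations, no filter, DESeq2 1.42.0, limma 3.58.1 on log2(FPKM + 0.1), fits of 2 groups and fits without libraries. Named members are the 2 of highest FPKM in each complex and the isoform sets, plus those said to be chosen after their values were seen; other lists give called genes of lowest p, or else their 2 of highest level. Members and lists were chosen with earlier results of these data known. Some single genes that this rule names are not reported here.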

Additional observations from a re-analysis of the deposited data

Results flagged for a closer look

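In groups of 5, a library was singled out where its gap to the nearest other exceeded 0.71 of the group's range; chance gives this in about 5% of groups, and 9 of 153 groups showed it. Cox6a2 stood apart in AIA replicate 19 (48.97 CPM, the next library at 0.0656) and in CON replicate 2 (43.57 CPM, the next at 0.0885). Cox8b did so in the same libraries, with 13.77 CPM in AIA replicate 19 and 16.71 CPM in CON replicate 2. The skeletal muscle score was 7.048 in AIA replicate 19 and 6.08 in CON replicate 2. CON replicate 17 was the low library of its group for Atp5mc3 (123.7 CPM, the next at 147), Sdha (193.9 CPM, the next at 228) and Sdhb (85.94 CPM, the next at 96.2).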

How the results depend on the processing

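Members called higher in Ab against AIA numbered 0 in the reported fit, 1 with upper-quartile normalization, 3 with library totals only (chosen after seeing the data), 4 with DESeq2, 3 with limma on log2 FPKM and 0 to 17 with 1 library left out. Of all tested genes 1.83% were called higher in the reported fit. The share was 1.94% with upper-quartile normalization, 1.82% with library totals only, 4.13% with DESeq2 and 1.99% with limma. In Ab against CON they numbered 0, but 3 with DESeq2, 2 with only the 2 groups compared, 1 with limma (5.71%, 5.17% and 2.9% of all tested genes) and 0 to 3 with 1 library left out (3 without Ab replicate 3, 2 without AIA replicate 13). In AIA against CON, and for members called lower, the count was 0 in each setting run. With 1 library left out the median log2 fold change of the members was 0.17 to 0.30 in Ab against AIA, 0.12 to 0.24 in Ab against CON and -0.11 to 0.02 in AIA against CON, above 0 without AIA replicate 18. Over 27 named members and 24 settings, 25 single values were called in Ab against AIA, 9 in Ab against CON and 0 in AIA against CON. The cause of these differences was not tested. No paired analysis was possible because the groups share no replicate numbers.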

Other observations

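Cox7a1, the muscle form of subunit 7a, had 1.05 CPM in AIA replicate 19 and 1.02 CPM in CON replicate 2, within 0.712 to 1.72 CPM of all other libraries, while Cox6a2 and Cox8b were high in both. Which transcript the Cox7a1 row counts, at a gene length of 2262 bases, is not known.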
